A study of Mus musculus with 4 samples.

Results

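The genes described are 7 that encode proteins of the red cell membrane and of the spectrin network under it: *Slc4a1*, *Rhag*, *Rhd*, *Ank1*, *Sptb*, *Add2* and *Kel*. They were chosen by name, as the genes whose symbol in the array annotation is one of these, and with earlier results of these data known. They make up 7 of the 24729 genes named on the array and hold 15 probes. RNA of whole C57BL/6 mouse embryos was hybridized to 1-colour Agilent arrays, which measure a transcript by the Cy3 brightness of a spot holding a probe of 60 bases. The embryos were WT or *Dyrk2*-/- and were taken at E8.5 or E10.5 (days of embryonic development), with 1 array for each of the 4 groups and all 4 arrays on 1 slide. *Dyrk2* encodes a serine/threonine kinase and was disrupted by small deletions made with a CRISPR/Cas9 nickase. Which deletion the hybridized embryos carried and how many embryos each RNA came from are not given in the sources used here.

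The red cell keeps its shape through a mesh of spectrin and short actin filaments that lies under the lipid bilayer and is tied to proteins that cross it. The anion exchanger band 3 and the Rh proteins cross the bilayer, ankyrin links band 3 to β-spectrin, and adducin sits where spectrin meets actin. In the mouse embryo, primitive red cells arise in the blood islands of the yolk sac, enter the circulation and go on maturing there while they fill with globin and build this membrane.

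Values are log2 of the background-subtracted intensity minus the 75th percentile of the same array, so that each is relative to the other probes of its array. A gene is given by its brightest probe unless another is named, and since probes differ in how well they bind, a brighter probe need not mark a more abundant transcript. Where a list has a brightest gene, it is the one with the highest linear value averaged over the 4 arrays, which need not be the highest on each of them. The lowest value among probes that the scanner software marked as well above background was −4.82 (WT) and −4.53 (*Dyrk2*-/-) at E8.5, then −4.72 and −4.77 at E10.5. Where a single array of a pair passed this mark, its linear value was divided by that limit on the dimmer array, or by the probe's dimmer value if that was higher, and the quotient is written as at least that fold. Such a bound holds for this background correction, and normexp gave smaller ratios than several of the bounds. Where neither passed, no fold was taken. With 1 array per group there was no replicate check at a stage and no p-value was computed there. The median SD between spots of the same probe was 0.09 and 0.12 (log2) on the WT and *Dyrk2*-/- arrays at E8.5, then 0.07 and 0.08 at E10.5, and it covers the spots of 1 array, not the difference between embryos.

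The targeted gene was read first. *Dyrk2* at its brightest probe (chromosome 10 of mm9, 118296479 to 118296538) was 0.06 (WT) and 0.76 (*Dyrk2*-/-) at E8.5, then −0.31 and 0.34 at E10.5. On the mutant arrays this probe was 1.62-fold higher at E8.5 and 1.57-fold higher at E10.5. The difference passed 1.5-fold at neither stage without scaling between arrays, and at E10.5 alone under the spike-in scaling. The other *Dyrk2* probe (118295164 to 118295223) was −0.23 and −0.20 at E8.5, then −0.28 and −0.00 at E10.5. Neither probe was lower on the mutant arrays at this scaling, although under the spike-in scaling and without scaling the other probe was lower at E8.5, and a small deletion need not lower a transcript, so that these values did not check the genotype labels. Where the probes lie relative to the deletion was not analysed here. The mutant arrays are therefore called the arrays labelled *Dyrk2*-/-, and every direction between genotypes rests on those labels.

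The tissue label was read from 8 genes of the embryo's heart, neural tube, somites and gut, and all 8 were well above background on each of the 4 arrays. *Sox2*, the brightest of them on average, was 3.08 and 2.93 at E8.5, then 3.12 and 3.03 at E10.5. On the array labelled *Dyrk2*-/- 1 of the 8 was 1.5-fold or more lower than WT in the E8.5 pair, *Foxa2* (2.08-fold; 5 were with the spike-in scaling and 3 without scaling), and 2 in the E10.5 pair, with *Tbx6* (3.16-fold) the larger difference. Genes typical of yolk sac endoderm, some of which the early gut and liver also use, were present as well: 10 of 10 were well above background on both E8.5 arrays, and 9 and 8 of 10 on the WT and *Dyrk2*-/- arrays at E10.5. The embryos of the E10.5 pair were unlike in sex-linked transcripts. *Xist*, the RNA that coats the silenced X of female cells, was −7.01 on the WT array, not well above background, and −0.37 on the array labelled *Dyrk2*-/-. The Y-linked *Eif2s3y* was 0.66 and −6.09 on these arrays and *Kdm5d* 0.52 and −6.99, in both cases not well above background on the array labelled *Dyrk2*-/-. At E8.5 *Eif2s3y* was 1.45 and 1.14. The part of sex in the differences at E10.5 was not tested.

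At E8.5, 6 of the 7 genes passed the background mark on 1 or both arrays, and 5 of these were 1.5-fold or more higher on the array labelled *Dyrk2*-/-, against 4.23% of the 15789 genes measured in all. *Add2* entered this count only through the array on which it was brighter. No gene among the 6 was lower by 1.5-fold or more, as 5.43% of all genes were. The 6 genes had a median log2 ratio of 1.71 (1.70 when *Add2* is set at its bound), and that of all genes was −0.03. At E10.5 all 7 genes were well above background on both arrays, and 6 were 1.5-fold or more higher on the array labelled *Dyrk2*-/-, against 2.76% of 16122 genes, with 0 of 7 lower by that much against 4.01%. The median log2 ratio was 1.01, and that of all genes −0.02. That the earlier pair had the larger median of these genes depended on the processing. Under normexp the medians were 0.89 for the earlier pair and 0.88 for the later one. They were 1.17 for both pairs under the spike-in scaling, and 1.46 and then 0.88 without scaling. In RNA of whole embryos, a different number of red cells and a different amount of RNA per red cell cannot be told apart.

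These ratios are relative to the bulk of the probes. Scaled by spike-in control RNA, the median log2 ratio of all genes moved to −0.58 at E8.5, then 0.15 at E10.5, and without scaling between arrays to −0.29 and −0.15. Under both, 5 genes of the E8.5 pair and 6 of the E10.5 pair were 1.5-fold or more higher on the array labelled *Dyrk2*-/-, while *Kel* was lower by that much at E8.5 under both and *Add2* at E10.5 without scaling. At E8.5, 184 of 15789 genes were higher and 7695 lower by that much under the spike-in scaling, and 324 and 2227 without scaling. At E10.5 the numbers were 732 and 383 of 16122, then 344 and 1015.

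**Figure D1:**
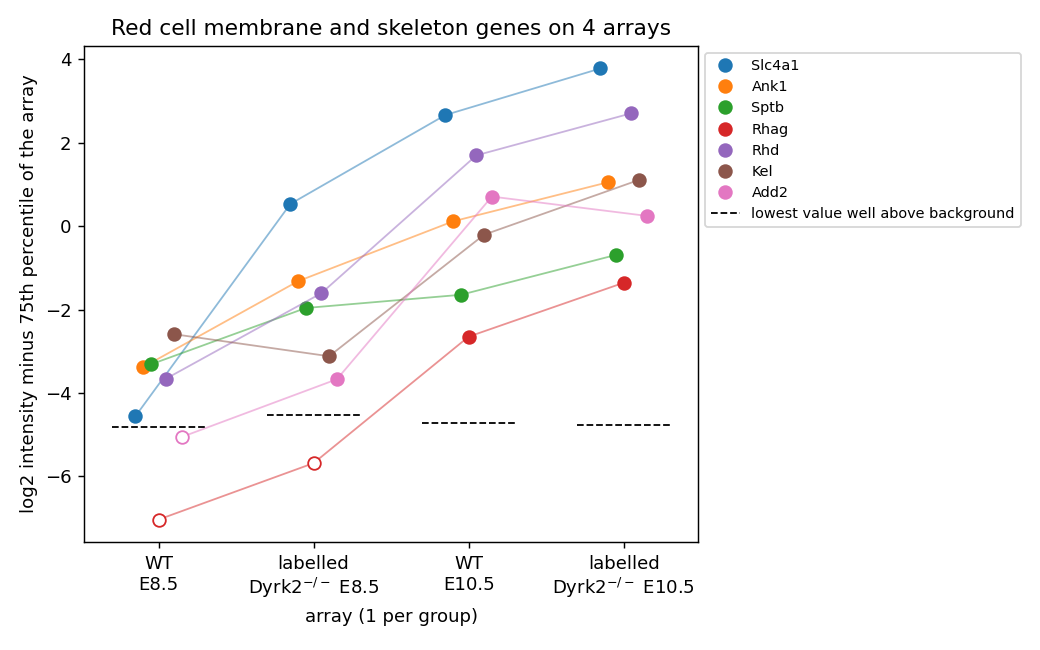
Log2 intensity minus the 75th percentile of the array (vertical axis) at the brightest probe of each of the 7 genes on the 4 arrays (horizontal axis, 1 array per group); filled circles are well above background, open circles are not, and dashed lines mark the lowest value well above background on each array. Each coloured line joins the values of 1 gene: *Kel* alone was lower on the array labelled *Dyrk2*-/- at E8.5 and *Add2* alone at E10.5, and the height of a line does not rank the transcripts of different genes.

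*Slc4a1* encodes band 3, the exchanger of chloride and bicarbonate and the most abundant protein of the mature red cell membrane. Its single probe (chromosome 11 of mm9, 102210256 to 102210315, minus strand) was −4.56 on the WT and 0.54 on the array labelled *Dyrk2*-/- at E8.5, then 2.67 and 3.78 at E10.5. The 4 arrays thus stood in one order, with WT E8.5 close to the limit of detection and the array labelled *Dyrk2*-/- higher within each stage. In intensity units before scaling, the E8.5 spots read 16.6 ± 3.49 and 473 ± 47.4, where the error is the scanner software's own for the spot. The difference was 34.1-fold at E8.5, then 2.17-fold at E10.5. The E8.5 value depends on the background correction: the log2 ratio was 5.09 here and 2.98 under normexp, which raises low values, while at E10.5 it was 1.12 and 1.11. The WT E8.5 level was 0.668% of the WT E10.5 level at the same probe, while that of the E8.5 array labelled *Dyrk2*-/- was 22.8%.

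The Rh proteins form a complex with band 3 in the membrane. *Rhd*, the Rh blood group polypeptide of the mouse, was −3.65 and −1.60 at E8.5, then 1.70 and 2.71 at E10.5 at its brightest probe (chromosome 4, 134452018 to 134452077), in the order WT and labelled *Dyrk2*-/-. It was 4.13-fold higher on the array labelled *Dyrk2*-/- at E8.5, then 2.01-fold at E10.5, although under normexp the log2 ratios of the stages were alike (1.02 and 0.93). Its other probe (134441242 to 134441301) was −5.49, not well above background, and −4.38 at E8.5, then −0.65 and 0.34 at E10.5, which gave at least 1.35-fold at the earlier stage and 1.97-fold at the later one, in the same direction. Both *Rhd* probes were therefore low on the E8.5 arrays and high on the E10.5 arrays, with the array labelled *Dyrk2*-/- the higher of each pair.

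*Rhag* encodes the Rh-associated glycoprotein, which the Rh polypeptide needs to reach the membrane and which carries ammonium. Its probe (chromosome 17, 40976929 to 40976988) was −7.03 and −5.68 at E8.5, below background on both arrays, so that no fold was taken there. At E10.5 it was −2.65 on the WT and −1.36 on the array labelled *Dyrk2*-/-, a 2.45-fold difference (log2 ratio 0.85 under normexp). Of the 7 genes, *Rhag* alone was not measured on either E8.5 array.

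Ankyrin and β-spectrin make the link between band 3 and the skeleton. *Ank1*, erythrocyte ankyrin, was −3.38 and −1.32 at E8.5, then 0.12 and 1.06 at E10.5 at the brightest of its 5 probes (chromosome 8, 24259629 to 24259688). The order of the arrays was that of *Slc4a1* and *Rhd*, and the array labelled *Dyrk2*-/- was 4.17-fold higher at E8.5, then 1.92-fold at E10.5 (log2 ratios of 1.23 and 0.88 under normexp). Of its other probes, the one at 24259068 to 24259127 was −5.88, not well above background, and −2.50 at E8.5, then −1.20 and −0.10 at E10.5, higher by at least 4.98-fold and, measured at E10.5, by 2.14-fold. The probe at 24237389 to 24237448 was −6.40, not well above background, and −4.00 at E8.5, then −4.29 and −2.82 at E10.5, higher by at least 1.77-fold and, measured at E10.5, by 2.77-fold. At this probe the E8.5 array labelled *Dyrk2*-/- was above the WT E10.5 array, unlike at the brightest one. The probe at 24250690 to 24251684, which spans a junction, was below background on both E8.5 arrays (−6.13 and −5.05) and was −3.23 and −2.02 at E10.5, 2.32-fold higher. The last one, at 24231065 to 24231410, passed the background mark on no array.

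*Sptb*, the β-spectrin of red cells, was −3.31 and −1.96 at E8.5, then −1.64 and −0.69 at E10.5 at its brightest probe (chromosome 12, 77697657 to 77697716, minus strand). The array labelled *Dyrk2*-/- was 2.55-fold higher at E8.5, then 1.94-fold at E10.5 (log2 ratios of 0.76 and 0.77 under normexp), and at E8.5 it reached 80.3% of the WT E10.5 level, where the WT array was at 31.5%. The other *Sptb* probe (77682089 to 77682148) was −6.03 and −5.35 at E8.5, then −4.96 and −4.47 at E10.5. A single array, E10.5 labelled *Dyrk2*-/-, passed the background mark, with a bound of at least 1.19-fold over WT, so that the ratio of *Sptb* at E8.5 rests on 1 probe. *Ank1* and *Sptb* are also used in striated muscle, and of 10 muscle genes, 8 were measured in the E8.5 pair and 10 in the E10.5 pair, with 0 higher by 1.5-fold or more on the array labelled *Dyrk2*-/- at either stage and 1, *Myh3* (2.17-fold), lower at E10.5. In the E8.5 pair 0 were below WT by that much, but with the spike-in scaling 3 were and without scaling 1. *Myh6*, the brightest of these on average, was 6.18 and 6.13 at E8.5, then 5.08 and 5.21 at E10.5, and the summed level of the list (linear values of the brightest probes added, with the 75th percentile of the array as 1) was 218 and 228 at E8.5, then 130 and 128 at E10.5. The part of muscle in these values was not tested.

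*Add2*, β-adducin, is found in red cells and neurons. Its brightest probe (chromosome 6, 86074242 to 86074301) was −5.05, not well above background, and −3.67 at E8.5, then 0.71 and 0.25 at E10.5. It was at least 2.22-fold higher on the array labelled *Dyrk2*-/- at E8.5 and 1.38-fold lower at E10.5, the single member whose brightest probe was lower there at that stage. Under normexp the log2 ratios were 0.57, below both the bound and 1.5-fold, and −0.39. The sign of the E10.5 ratio was negative at every scaling tried, and without scaling between arrays the difference passed 1.5-fold (log2 ratio −0.60). The other probe (86046682 to 86046741) was below background on both E8.5 arrays (−5.18 and −6.52) and was −3.97 and −3.96 at E10.5, a 1.01-fold difference. Of 8 neural genes measured in the E8.5 pair, 2 were above 0 in log2 ratio, with a median log2 ratio of −0.08. *Neurog2* alone was higher by 1.5-fold or more (1.81-fold), and 0 genes were under normexp or the spike-in scaling. Lower by that much were 0 genes, but 5 with the spike-in scaling and 1 without scaling. Of 10 neural genes, 9 were lower at E10.5 for the mutant label as well, 2 of them by 1.5-fold or more (0 under the spike-in scaling, 4 without scaling), and the median log2 ratio was −0.36. *Stmn2*, the brightest of them on average, was 3.80 and 3.32 at E8.5, then 4.80 and 4.18 at E10.5. The summed level of the neural list was 33.8 and 30.4 at E8.5, then 96.0 and 71.8 at E10.5, and its part in the *Add2* values was not tested. The *Add2* probes differ in the transcript they are annotated to (NM_001271859 and NM_001271860), and the first 30 bases of each are shown so that the region read can be found.
Add2 brightest probe: acaaagcttcccttcgattttcatgagaac
Add2 other probe: taaagtgaacattctgggagaggtggtgga

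*Kel* encodes the Kell blood group glycoprotein, a metalloendopeptidase bound to the XK protein. Its brightest probe (chromosome 6, 41636474 to 41636533, minus strand) was −2.59 on the WT and −3.12 on the array labelled *Dyrk2*-/- at E8.5, then −0.20 and 1.11 at E10.5. It was 1.44-fold lower at E8.5 and 2.49-fold higher at E10.5, and it alone among the brightest probes was lower on the array labelled *Dyrk2*-/- at E8.5. In intensity units before scaling, the E8.5 spots read 64.9 ± 7.07 and 37.7 ± 4.74 with the scanner's error. The other *Kel* probe (41637969 to 41638028) was −6.46, not well above background, and −3.64 at E8.5, then −1.10 and 0.09 at E10.5. It was at least 2.27-fold higher at E8.5, then 2.27-fold at E10.5, so that the probes of *Kel* disagreed in direction at E8.5 and not at E10.5. With the mean of both probes the log2 ratio at E8.5 became 1.15, a value that includes the WT spot of the other probe, not well above background. The log2 ratio of the brightest probe at E8.5 became −1.08 with the spike-in scaling, past 1.5-fold, and −0.10 under normexp, near no difference. At E10.5 it was 1.19 under normexp. Both probes are annotated to NM_032540, and their first 30 bases are given because they disagreed.
Kel brightest probe: cctgagcaatactccagattttgccaaaca
Kel other probe: tttgcctagcatatcctcgttcaatggttc

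Over the 15 probes, 5 passed the background mark on both E8.5 arrays, the brightest of *Slc4a1*, *Rhd*, *Ank1*, *Sptb* and *Kel*, and that of *Kel* was the 1 lower on the array labelled *Dyrk2*-/-. A further 5 passed it on that array alone, so that their direction was fixed by the mark. In the E10.5 pair 13 probes passed it on both arrays and 1 on the array labelled *Dyrk2*-/- alone, and 1, the brightest of *Add2*, was lower on that array. Of the probes compared at E10.5, those of *Add2* differed by less than 1.5-fold. The dimmer one of *Sptb* had only a bound of at least 1.19-fold, which does not place it on either side of 1.5-fold. Probes of 1 gene share their transcript and are not separate measurements of it.

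**Figure D2:**
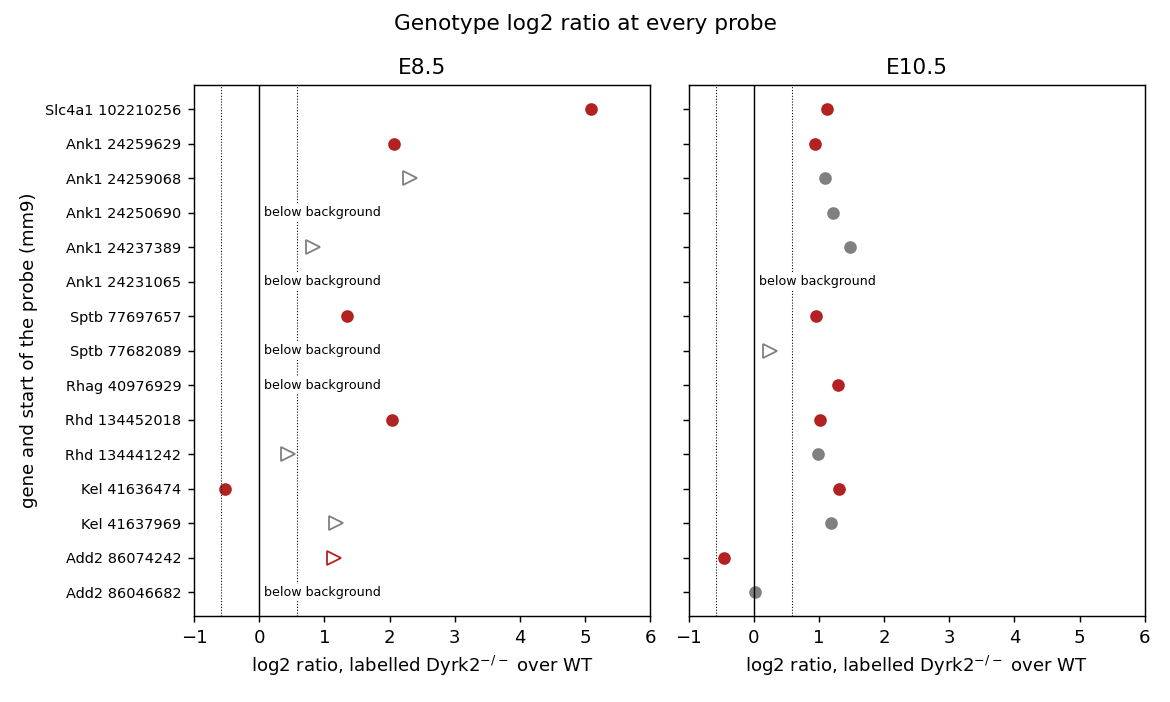
Log2 ratio of the array labelled *Dyrk2*-/- over WT (horizontal axis) for each of the 15 probes, named by gene and start position in mm9 (vertical axis), at E8.5 and E10.5; red marks the brightest probe of a gene and grey its other probes, circles are measured on both arrays, open triangles are bounds, probes below background on both arrays are marked in words, and dotted lines stand at 1.5-fold. At E8.5 the points spread from −0.53 (*Kel*) to 5.09 (*Slc4a1*), and at E10.5 from −0.46 (*Add2*) to 1.47 (*Ank1*). Those of the brightest probes other than *Add2* lie between 0.94 and 1.31 at E10.5.

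The stages were compared within each genotype. On the WT arrays all 7 genes were 1.5-fold or more higher at E10.5 than at E8.5, against 19.3% of 16455 genes, and 0 of 7 were lower by that much, against 18.3%. The median log2 ratio was 4.39, or 3.50 with the 2 genes at a bound, and that of all genes −0.09. *Slc4a1* was 150-fold higher, *Rhd* 40.8-fold, *Ank1* 11.3-fold, *Kel* 5.23-fold and *Sptb* 3.18-fold, with *Add2* at least 46.3-fold and *Rhag* at least 4.51-fold. *Rhag* and *Add2* passed only through the E10.5 array, on which they were bright. Under normexp the log2 ratios on the WT arrays were smaller, 4.95 for *Slc4a1*, 3.85 for *Rhd*, 2.29 for *Ank1*, 1.71 for *Kel*, 0.84 for *Sptb*, 3.37 for *Add2* and 0.90 for *Rhag*, the last 2 below the bounds given, and their median over the 7 genes was 2.29.

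On the arrays labelled *Dyrk2*-/- all 7 genes were again 1.5-fold or more higher at E10.5, against 17.1% of 16210 genes (14.3% lower). Their median log2 ratio was 3.92 (3.25 when *Rhag* is set at its bound) and that of all genes −0.07. *Rhd* was 19.9-fold higher, *Kel* 18.8-fold, *Add2* 15.1-fold, *Ank1* 5.18-fold and *Sptb* 2.41-fold, with *Rhag* at least 9.01-fold. *Slc4a1* had a log2 ratio of 3.25. Under normexp the log2 ratios were 3.76 for *Rhd*, 2.9995 for *Kel*, 2.41 for *Add2*, 1.93 for *Ank1*, 0.85 for *Sptb*, 3.08 for *Slc4a1* and 1.36 for *Rhag*, the last below its bound, and their median was 2.41. The stage difference was smaller than on the WT arrays for *Slc4a1*, *Ank1* and *Rhd*, here and with each of 5 other ways of normalizing the arrays. For *Add2*, whose WT E8.5 spot was not well above background, it was 15.1-fold against at least 46.3-fold on the WT arrays. Under normexp the *Add2* log2 ratios were 2.41 and, on the WT arrays, 3.37. For *Rhag* it was a bound in both genotypes and was not compared. For *Sptb* it was smaller here but larger under the spike-in scaling (log2 ratios of 1.60 on the WT arrays and 1.91) and nearly equal under normexp (0.84 and 0.85). For *Kel* it was larger at the brightest probe. The other probe gave at least 13.2-fold on the WT arrays, where its E8.5 spot was not well above background, and 13.2-fold on the others. The mean of both probes (log2 ratios of 3.88 and 3.98) includes that WT spot, so that it does not compare the stage differences. Since the genotype and stage comparisons share arrays, these values describe the same 4 measurements. The spike-in scaling moved the median of all genes between the stages to −0.16 on the WT arrays and 0.57 on those labelled *Dyrk2*-/-, and no scaling moved it to 0.09 and 0.24. All 7 genes were still higher by 1.5-fold or more. Under the spike-in scaling so were 2897 of 16455 genes on the WT arrays and 7938 of 16210 on the others, and without scaling 4026 and 4446.

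Genotype and stage were tested over all 4 arrays with limma, in a fit whose 1 residual degree of freedom holds how far the genotype ratio of a probe changed with stage. For genotype, 0 of the 7 genes passed an adjusted p of 0.05 (Benjamini-Hochberg over 32289 probes), against 0.0124% of the probes called higher and 0.00619% called lower, and 5 of the 7 had an unadjusted p under 0.05, as 1592 of all probes had. *Rhd* had a log2 difference of 1.53 (SE 0.22, adjusted p = 0.106), *Sptb* 1.15 (SE 0.19, adjusted p = 0.157) and *Slc4a1* 3.10 (SE 0.67, adjusted p = 0.301), each higher on the array labelled *Dyrk2*-/- at both stages, as *Ank1* was (SE 0.24, adjusted p = 0.146). *Slc4a1*, whose ratio differed most between the stages among these, had the largest SE. *Rhag* had a difference of 1.32 (SE 0.34, adjusted p = 0.537), with E8.5 values below background, and *Add2* (0.46, SE 0.35) and *Kel* (0.39, SE 0.34) had an adjusted p of 1.0. The call depended on the processing: *Rhd* passed in 5, *Ank1* in 4, *Slc4a1* in 3 and *Sptb* in 2 of the 8 alternatives tried. The probes called in all rose as well, from 6 to 729 of 32289 without scaling and 564 of 56604 without a filter, where 4 members passed, and were between 0 and 40 in the others.

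For stage, all 7 genes passed and were higher at E10.5, against 15.7% of the probes called higher and 19.6% called lower. *Rhd* had a log2 difference of 4.83 (SE 0.22, adjusted p = 1.15e-06 in limma), *Slc4a1* 5.24 (SE 0.67, adjusted p = 0.000426) and *Sptb* 1.47 (SE 0.19, adjusted p = 0.000413), higher on both E10.5 arrays than on the E8.5 array of the same genotype. *Rhag* and *Add2* had values below background among those at E8.5. With 1 array per group, the spread in this fit does not measure the difference between embryos of a group. The size of the adjusted p depended on the processing and was larger for all 7 genes without the intensity trend.

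A list of 24 other structural, blood group and transport proteins of the red cell membrane was read in the same way. At E8.5, 21 were compared, 4 of which passed the background mark on 1 array alone, and 5 of the 21 were 1.5-fold or more higher on the array labelled *Dyrk2*-/- and 1 was lower, and at E10.5, 7 of 24 were higher and 0 lower. Under the spike-in scaling 4 were higher and 5 lower at E8.5, then 10 higher and 0 lower at E10.5. The median log2 ratio was 0.09 at E8.5, negative under the spike-in scaling (−0.46) and without scaling (−0.17), and 0.30 at E10.5. The summed level was 92.6 and 102 at E8.5, then 98.3 and 109 at E10.5. Among the genes 1.5-fold or more higher at both stages, *Kcnn4*, the calcium-activated potassium channel, was higher by at least 8.93-fold and, measured at E10.5, by 2.52-fold, and *Icam4*, the Landsteiner-Wiener antigen, was 2.59-fold higher at E8.5 and 2.23-fold at E10.5. *Epb41*, the gene of a skeleton protein that joins spectrin to actin, which is used in many cell types and was the brightest of the list on average, was 5.23 and 5.28 at E8.5, then 5.64 and 5.58 at E10.5, and its ratios, 0.04 and −0.06, changed sign with the scaling.

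Relatives of the 7 genes that are used in other tissues, such as *Slc4a2*, *Ank2*, *Sptbn1* and *Rhbg*, and also *Add1*, whose product is part of the red cell skeleton too, gave 0 of 19 measured at E8.5 that were 1.5-fold or more higher and 1 that was lower, and 1 of 21 higher and 1 lower at E10.5. Their median log2 ratios were −0.03 and −0.07. Under the spike-in scaling these became −0.58, with 9 of 19 lower by 1.5-fold or more, and 0.09, and without scaling −0.29, with 3 lower, and −0.20, with 2 lower. *Mme*, a membrane endopeptidase of the same family as the *Kel* product and the brightest of them on average, was 5.91 and 4.89 at E8.5, a 2.03-fold lower value for the mutant label, and 5.10 and 5.22 at E10.5. The summed level of the relatives was 219 and 181 at E8.5, then 193 and 189 at E10.5. *Sptbn4*, a neuronal β-spectrin, was 1.18 and 2.17 at E10.5, 1.99-fold higher.

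Globins and other red cell genes were set beside the membrane genes. At E8.5, 7 of 8 globin genes were compared and 7 were 1.5-fold or more higher on the array labelled *Dyrk2*-/- (median log2 ratio 4.94), although 2 of these, *Hbb-b2* and *Hbb-bt*, passed the background mark through that array alone, which fixed their direction. At E10.5, 3 of 8 were higher by that much (4 under the spike-in scaling, 1 without scaling), with a median of 0.39. *Hbb-bh1*, the brightest on average, was 3.37 and 7.15 at E8.5, then 8.19 and 8.40 at E10.5, and the summed level of the globins was 16.7 and 379 at E8.5, then 1397 and 1623 at E10.5. Globin probes can bind transcripts of close relatives. The membrane genes differed less than the globins at E8.5 (median 1.71) and more at E10.5 (median 1.01), a contrast that was not tested.

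Of 12 other red cell genes, transcription factors, heme enzymes and receptors among them, 9 were 1.5-fold or more higher in the E8.5 pair and 11 in the E10.5 pair, with 0 lower and median log2 ratios of 2.25 (2.20 with bounds) and 1.101. Of the 9, *Klf1*, *Gfi1b* and *Trim10* passed the mark through the array labelled *Dyrk2*-/- alone, which fixed their direction. Under normexp the medians were 1.13 and 0.98. *Gata1*, the erythroid transcription factor, was −4.01 and 0.26 at E8.5, then 0.98 and 2.21 at E10.5, and *Alas2*, the erythroid enzyme of the initial step of heme synthesis, was −3.83 and 0.24 and then 2.45 and 3.66. *Slc25a37* (mitoferrin), the brightest on average, was 2.30 and 3.41 at E8.5, then 4.05 and 4.90 at E10.5. The summed level of these 12 genes was 17.8 and 30.7 at E8.5, then 44.3 and 85.2 at E10.5, so that at both stages it was higher on the array labelled *Dyrk2*-/-, as the summed level of the 7 membrane genes was (0.523 and 2.65 at E8.5, 13.7 and 26.8 at E10.5). Such a sum leans on the brightest probes, and of the 7 genes *Slc4a1* was the brightest on average. The brightest probes of *Kel* at E8.5 and of *Add2* at E10.5 went the other way. The part of red cell number in the membrane genes was not tested.

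Yolk sac endoderm genes had ratios of the opposite sign at E8.5. Of 10 measured, 0 were higher and 6 were 1.5-fold or more lower on the array labelled *Dyrk2*-/- (median log2 ratio −0.61), and at E10.5 0 of 9 differed by that much, with a median of −0.30. Of the E8.5 pair all 10 were lower by that much with the spike-in scaling or with none, and 4 with normexp, and of the E10.5 pair 3 of 9 without scaling. *Afp*, the brightest on average over both stages, was 3.46 and 2.89 at E8.5, then 4.03 and 3.76 at E10.5. *Amn* was 1.75-fold lower at E8.5 and *Ttr* 1.54-fold. The summed level was 61.3 and 40.3 at E8.5, then 26.0 and 21.2 at E10.5, negative medians were found at every scaling tried, and the part of the amount of yolk sac in the E8.5 differences was not tested.

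The genes outside the list whose pattern over the 4 arrays was nearest to the median of the 7 members were *Ncf4*, *Slitrk6*, *Shisa3*, *Tspan32* and *Paqr6*. Likeness was the root mean square difference, over 4 arrays, between log2 values centred on each gene's own mean and the median of the members' centred values, among genes well above background on all 4 arrays. It was 0.23 for *Ncf4*, 0.27 for *Slitrk6*, 0.33 for *Shisa3*, 0.35 for *Tspan32* and 0.37 for *Paqr6*. On the WT arrays the median of the members was the centred value of *Rhag* itself (−2.85 at E8.5 and 1.53 at E10.5). Since *Rhag* was below background on both E8.5 arrays, this order of genes rests in part on values that were not measured. The members themselves lay between 0.26 (*Rhag*, with E8.5 values below background) and 1.42 (*Slc4a1*). *Rhd* was at 0.46, *Add2* at 0.60, *Ank1* at 0.61, *Kel* at 0.82 and *Sptb* at 1.29, *Slc4a1* having the widest and *Sptb* the narrowest range over the arrays.

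Promoter sequence was read because the members rose together between the stages. RefSeq promoters of build GRCm38.p6, 250 bases before to 50 bases after the start of the gene, were matched by symbol for 5 members, *Rhag*, *Rhd*, *Sptb*, *Add2* and *Kel*; *Slc4a1* and *Ank1* were not matched. GATA factors bind AGATAA and the like. This motif, the related motif AGATAG, the motif with T at its start, TGATAA, and lastly the motif TGATAG were searched on both strands, and all 5 promoters held at least 1 of them, against 29.8% of the 32851 promoters of the table. *Rhd* held AGATAA from position −43, *Kel* AGATAA from −56 and TGATAA from −19, and *Rhag* TGATAA on the other strand from −31, counted from the start of the gene. *Add2* held AGATAG on the other strand from −234 and *Sptb* from 13. CCACACCC was in 0 of 5 promoters and 3.56% of all, CCNCNCCC, which includes it, in 3 of 5 and 49.5%, and CANNTG in 4 of 5 and 72.3%. A match of letters is a description and does not show binding. The 120 bases before the start are shown for the members with a GATA motif within them, with those motifs in capitals: *Rhag* (chr17:40811029-40811148, plus strand), *Rhd* (chr4:134864416-134864535, plus strand) and *Kel* (chr6:41704326-41704445, minus strand).
Rhag promoter: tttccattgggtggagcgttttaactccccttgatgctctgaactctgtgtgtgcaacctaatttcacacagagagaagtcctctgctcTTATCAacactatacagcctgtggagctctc
Rhd promoter: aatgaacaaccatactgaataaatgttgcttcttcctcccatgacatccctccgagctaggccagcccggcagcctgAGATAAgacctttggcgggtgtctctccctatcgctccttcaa
Kel promoter: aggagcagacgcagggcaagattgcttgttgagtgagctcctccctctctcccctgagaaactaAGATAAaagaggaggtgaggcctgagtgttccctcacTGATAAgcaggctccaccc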

How the data were processed

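Scanner output deposited for the arrays (Agilent SurePrint G3 mouse) holds a processed intensity that is linear, background-subtracted and not scaled between arrays. The file headers name Feature Extraction 10.7.1.1, and the submitters' processing notes 9.5.1.1. A processed file of linear intensities from the authors, used as an alternative, had a median of 27.6 in each of its 4 columns, as after quantile normalization, and its method is not given in the sources used here.

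Each array held 56605 probes, of which 31370 and 30226 were well above background on the WT and *Dyrk2*-/- arrays at E8.5, then 31818 and 31943 at E10.5, which with the number of arrays limits the precision, and no spot was saturated. Spots marked as outliers were left out, log2 intensities were averaged per probe, and the 75th percentile of the array was subtracted. Genes were named through RefSeq accessions where the reference table held them (32993 probes) and otherwise by the file's symbol. Genes were compared where the brightest probe passed the background mark on 1 or both arrays of a pair, with 1.5-fold as the threshold, on measured values. Limma 3.58.1 (lmFit, eBayes with an intensity trend, Benjamini-Hochberg adjustment) was fitted to probes that passed it on 2 arrays or more, with terms for stage and genotype. Software was Python 3.11.15 (pandas 2.3.3, numpy 2.4.6, matplotlib) and R 4.3.3 (data.table, version 1.17.8), and the steps were checked on simulated data.

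The members and gene lists were chosen with earlier results of these data known. Named genes are all members and genes drawn, for each other list, from those 1.5-fold or more changed in the same direction at both stages (at most 6, by the mean size of the ratios), otherwise the largest change at each stage, together with the gene of highest mean linear value over the 4 arrays; 5 genes of nearest pattern; and *Dyrk2*. *Slc4a2*, *Ank2*, *Sptbn1*, *Rhbg* and *Add1* were named as examples of a list. *Hbb-b2*, *Hbb-bt*, *Klf1*, *Gfi1b*, *Trim10* and *Tpbpa* were named for values near or below background, and *Xist* after its values were seen. Coordinates of probes are those of the array annotation (mm9), and whether a probe lies in coding sequence was not analysed here.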

Additional observations from a re-analysis of the deposited data

Results flagged for a closer look

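*Kel* stood out because its brightest probe had ratios of opposite sign at the stages: the log2 ratio of the array labelled *Dyrk2*-/- over WT stood at −0.53 at E8.5 but 1.31 at E10.5, a difference of 1.84. Under normexp the log2 ratios of this probe were −0.10 and 1.19, so that the E8.5 value was near no difference. The other *Kel* probe was higher at both stages. *Add2* stood out for the reverse order. At E8.5, where the WT spot was not well above background, its log2 ratio was bounded at 1.15 or more, and at E10.5 it was −0.46, so that with the bound the difference was −1.61 or further from 0. Under normexp the ratios were 0.57 and −0.39, nearer to each other than that bound. With 1 array per group the difference between the stages was not tested for either gene.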

How the results depend on the processing

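The alternatives were quantile normalization, normexp (offset 50), spike-in scaling (7 of 10 control probes were usable), no scaling between arrays, the deposited table, stricter and absent filters, a 2-fold threshold, a Z-score over 2 or less than −2 among the 500 of nearest signal and averaging the probes of each gene. Setting genes above background on 1 array at their bound was added after the data had been seen. Of 155 alternative values of the 27 log2 ratios of single genes, 154 kept the sign; the exception was *Kel* at E8.5 with the mean of its probes.

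The 5 genes higher at E8.5 became between 4 and 6 over these alternatives, and the 6 higher at E10.5 between 4 and 6. The 7 genes higher at E10.5 on the WT arrays became 4 with the Z-score, and 5 of 5 were higher with the filter on both arrays. The 7 on the arrays labelled *Dyrk2*-/- became 6 with the Z-score, and 6 of 6 were higher with that filter. For genotype over both stages limma called 0 genes (6 of all 32289 probes), and 1 under quantile normalization (*Rhd*; 24 of all probes), 2 under normexp (25 of all) and 2 with the deposited table (40 of all; *Ank1* and *Rhd* in each), 1 under the spike-in scaling (*Slc4a1*; 37 of all), 4 without scaling (729 of all) and 4 without a filter (564 of 56604 probes; *Slc4a1*, *Ank1*, *Sptb* and *Rhd* in each). It called 0 with a filter on all 4 arrays (10 of 28622 probes) and 0 without the intensity trend (0 of all), where 1635 probes had an unadjusted p under 0.05. The cause was not tested. The median log2 ratio of the members at E8.5 moved most under normexp, from 1.71 to 0.89. The limma fit, with terms for stage and genotype, sets the genotypes against each other within each stage. No paired analysis was possible beyond that because each group has 1 array.

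Over all genes, 668 were higher and 857 lower by 1.5-fold at E8.5, 184 and 7695 under the spike-in scaling, 324 and 2227 without scaling, and 188 and 231 under normexp. At E10.5 the numbers were 445 and 647, 732 and 383 under the spike-in scaling, 344 and 1015 without scaling, and 137 and 116 under normexp. Between the stages they were 3178 and 3011 on the WT arrays (4026 and 2046 without scaling, 2010 and 2153 under normexp) and 2771 and 2324 on those labelled *Dyrk2*-/- (7938 and 828 under the spike-in scaling, 4446 and 1267 without scaling, 1523 and 1485 under normexp). Signal near background limits the E8.5 ratios: 5 of the 15 probes were below it on both arrays and 5 on 1.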

Other observations

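Markers of other blood cells and of vessels were read in the same way. Of 8 megakaryocyte genes, 2 could be compared at E8.5 (1 of them on 1 array alone), 8 at E10.5, and 0 differed by 1.5-fold or more between the genotypes at either stage, although 1 was lower in the E8.5 pair with the spike-in scaling or with none. *Pf4*, the brightest of them on average over the 4 arrays, was below background on both E8.5 arrays and was 2.67 (WT) and 2.44 (labelled *Dyrk2*-/-) at E10.5. The summed level of the list was 0.213 and 0.240 at E8.5, then 9.20 and 8.10 at E10.5. Of 8 macrophage genes, 0 of 4 compared differed by 1.5-fold at E8.5 (2 lower under the spike-in scaling, 1 without scaling), while at E10.5 3 were lower and 0 higher by that much for the mutant label, the median log2 ratio being −0.50, although under normexp and under the spike-in scaling 0 were lower and without scaling 5 were. *C1qc*, a complement gene of macrophages, was 1.66-fold lower there, and *Ptprc*, the brightest of the list on average, was 1.76 and 1.85. The summed level of the macrophage list was 4.50 and 4.96 at E8.5, then 7.11 and 6.34 at E10.5.

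Of 8 endothelial genes, 8 were above 0 in log2 ratio at E8.5, with a median of 0.24 that became −0.01 without scaling and −0.30 under the spike-in scaling. *Emcn* was 1.53-fold higher on the array labelled *Dyrk2*-/- at E8.5, a value that passed 1.5-fold neither under normexp or the spike-in scaling nor without scaling, and 0 of 8 differed by 1.5-fold at E10.5. *Kdr*, the brightest on average, was 2.94 and 3.18 at E8.5, then 2.70 and 2.59 at E10.5. The summed level was 18.8 and 22.6 at E8.5, then 22.1 and 21.3 at E10.5.

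Of 7 decidua and trophoblast genes on the array, 6 were compared at E8.5 (2 of these, *Prl3d1* among them, above background on 1 array alone), 2 of them 1.5-fold or more higher and 3 lower for the mutant label (4 lower under the spike-in scaling and without scaling, 1 under normexp). *Prl3d1* was at least 6.62-fold higher there, *Gcm1*, the brightest on average, was 1.59-fold lower, and *Tpbpa* passed the background mark on no array. The summed level was 16.4 and 10.8 at E8.5, then 18.8 and 23.0 at E10.5.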
